A study of Mus musculus with 18 samples.

Results

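The 10 genes described here are the 4 Notch receptors (Notch1, Notch2, Notch3 and Notch4), 4 of their ligands (Jag1, Jag2, Dll1 and Dll4) and 2 of their classical target genes (Hes1 and Hey1). They were taken by name from the 49184 mouse genes to which the deposited transcripts were summed. All 10 passed the filter on low counts that left 21129 genes to test, with between 76 counts for Dll1 and 15649 counts for Notch2 in a single library. Cartilage RNA was measured by RNA-seq in 18 libraries from male C57Bl/6J mice (genotype label C57bl6), all 12 weeks old, after rupture of the anterior cruciate ligament (ACL) of the right knee by a single mechanical load. The question put to these genes is whether Notch signalling components differ in cartilage 1 or 7 days after this injury.

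Naïve libraries (n = 6, label day_7_naive) came from mice that were never loaded. Each side was pooled by itself in these mice, so this group includes left and right knees of the same animals. Injured libraries came from the right, loaded knee at day 1 (n = 3) or day 7 (n = 3), and contralateral libraries from the left, unloaded knee of the same injured mice at day 1 (n = 3) or day 7 (n = 3), which makes 5 groups. Each library pooled caps of femoral condyle cartilage from several mice, cut at the tidemark, and the sources used here differ on how many. Which libraries share mice is not given in the labels. Every test treats the libraries as independent, and p-values measure only the spread between these pools. Totals of estimated counts ran from 16074762 to 41794005 per library (median 25465706).

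Notch receptors are single-pass membrane proteins that are switched on by contact with a Jagged or Delta-like ligand on a neighbouring cell. Ligand binding exposes the receptor to an ADAM protease and then to gamma-secretase, which releases the intracellular domain. This domain enters the nucleus and turns the DNA-binding protein RBPJ, with a Mastermind co-activator, into an activator of genes such as Hes1, Hey1 and Nrarp. In the growth plate and in articular cartilage Notch signalling is known for its part in chondrocyte maturation, and in blood vessels Dll4, Notch4 and Jag1 act in endothelial sprouting while Notch3 acts in mural cells.

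The label gives the cells as chondrocytes, and the defining cartilage markers were present in every library. In naïve libraries the collagen gene Col2a1 stood at 356 ± 122 TPM (transcript abundance scaled by length and library total; SD, n = 6) and the proteoglycan gene Acan at 27.5 ± 11.01 TPM. The same libraries held much RNA of other cells, with the haemoglobin gene Hbb-bs at 16179 ± 2234 TPM, the neutrophil gene S100a8 at 4393 ± 861 TPM and the muscle myosin gene Myh4 at 181 ± 91.0 TPM. The endothelial gene Pecam1 stood at 15.4 ± 1.93 TPM. One library stood apart: in day 7 contralateral replicate 1 42.5% of counts fell on just 10 genes, where the remaining libraries had 16.6% to 29.8%, and the summed chondrocyte markers reached 13890 CPM (counts scaled to library size) against 4689 and 5497 CPM in the other day 7 contralateral libraries. For each of the 10 genes the change of day 7 injured against day 7 contralateral knees is given with and without this library. Differences of the injury effect between the days are given without it for some genes only.

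Upstream sequences are shown for the 3 Notch genes called higher in day 7 injured against naïve knees (Jag1, Dll4 and Notch4) and for the 2 pathway genes Rbpj and Nrarp. These are the genes whose levels the results below turn on. The Notch4 call depended on how transcript length was handled, as given below. RefSeq start sites on GRCm38.p6 were held for 8 of the 10 genes. Among the 250 bases upstream of the start, neither the RBPJ core TGGGAA nor the E box CACGTG, a site of Hes and Hey repressors, was found on either strand in any of the 8. No other site of these repressors was searched, so their absence cannot be read from this. Among all 32851 mouse promoters of that length, 21.6% held the core and 6.02% the E box. The GC box GGGCGG, a motif added after the first search, was found in 5 of the 8 (32.7% of all promoters), and the TATA box TATAAA, added likewise, in none (12.4%). Hes1 and Hey1 had no entry. The stretches below leave out bases that GENCODE places in an exon of the gene. Capitals mark motif matches in either orientation, which describe letters and not binding. They lie at chr2:137116645-137116770 (Jag1, minus strand), chr2:119325534-119325783 (Dll4, plus strand), chr17:34564045-34564267 (Notch4, plus strand), chr5:53590096-53590213 (Rbpj, plus strand) and chr2:25180508-25180757 (Nrarp, plus strand), each written 5′ to 3′ along the gene's strand.

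Jag1: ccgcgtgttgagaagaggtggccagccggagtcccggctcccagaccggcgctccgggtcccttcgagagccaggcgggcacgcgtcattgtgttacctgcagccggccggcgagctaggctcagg

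Dll4: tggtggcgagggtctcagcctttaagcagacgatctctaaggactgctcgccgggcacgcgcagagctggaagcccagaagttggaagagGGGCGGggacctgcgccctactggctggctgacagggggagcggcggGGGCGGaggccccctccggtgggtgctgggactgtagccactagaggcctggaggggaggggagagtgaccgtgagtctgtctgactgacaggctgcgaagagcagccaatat

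Notch4: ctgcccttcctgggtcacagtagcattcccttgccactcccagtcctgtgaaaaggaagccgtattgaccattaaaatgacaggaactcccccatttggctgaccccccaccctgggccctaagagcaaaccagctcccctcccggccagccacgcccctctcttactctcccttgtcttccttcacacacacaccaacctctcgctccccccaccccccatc

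Rbpj: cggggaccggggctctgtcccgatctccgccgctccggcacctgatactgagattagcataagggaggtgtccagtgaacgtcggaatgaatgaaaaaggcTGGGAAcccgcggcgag

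Nrarp: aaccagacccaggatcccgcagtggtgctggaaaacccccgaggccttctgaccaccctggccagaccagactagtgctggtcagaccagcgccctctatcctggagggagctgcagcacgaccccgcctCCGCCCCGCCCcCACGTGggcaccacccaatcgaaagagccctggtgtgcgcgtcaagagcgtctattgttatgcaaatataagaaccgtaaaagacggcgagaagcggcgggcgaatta

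The Jag1 and Notch4 stretches hold none of the motifs searched. The Dll4 stretch holds 2 GC boxes. In Rbpj an RBPJ core begins 149 bases before the first of its start sites and another, on the opposite strand and in an exon not shown, 65 bases before it, and in Nrarp an E box begins 108 bases before the start, next to 2 overlapping GC boxes read on the opposite strand.

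On GRCm38 (GENCODE) the genes lie at chr2:26457903-26516663 (Notch1), chr3:98013527-98150361 (Notch2), chr17:32120820-32166852 (Notch3), chr17:34564268-34588503 (Notch4), chr2:137081456-137116644 (Jag1), chr12:112907819-112929776 (Jag2), chr17:15367354-15376872 (Dll1), chr2:119325784-119335962 (Dll4), chr16:30064384-30067796 (Hes1) and chr3:8663359-8667256 (Hey1). All are protein coding, and counts cover their exons.

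Levels were compared between genes per transcript length. One transcript held most of the counts of each gene, from 89.3% for Jag2 (Jag2-201) to 99.9% for Notch3 (Notch3-201), and its TPM was used because summed TPM values give short fragments of a gene great weight. In naïve libraries the order of mean main-transcript TPM was Notch2 (16.9 ± 2.04), Notch1 (6.71 ± 0.651), Notch3 (4.05 ± 0.807), Hes1 (2.68 ± 0.275), Jag1 (2.39 ± 0.397), Notch4 (1.17 ± 0.146), Hey1 (1.09 ± 0.220), Dll4 (0.957 ± 0.167), Jag2 (0.691 ± 0.0819) and Dll1 (0.644 ± 0.0635; SD, n = 6 for each). The ranges of Notch2, Notch1 and Notch3 did not touch. Hes1 and Jag1 overlapped, as did each neighbouring pair from Notch4 down to Dll1. On summed TPM the top of the order was the same, Notch2 (19.2 ± 2.78) before Notch1 (15.3 ± 4.11), but their ranges overlapped. The mean of Notch4 (3.38 ± 1.11) moved above those of Hes1 and Jag1, though Notch4 exceeded Hes1 in only 2 of the 6 libraries. By summed TPM, Notch2 lay above 90.4% of the genes tested and Dll1 above 34.0%.

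**Figure D1:**
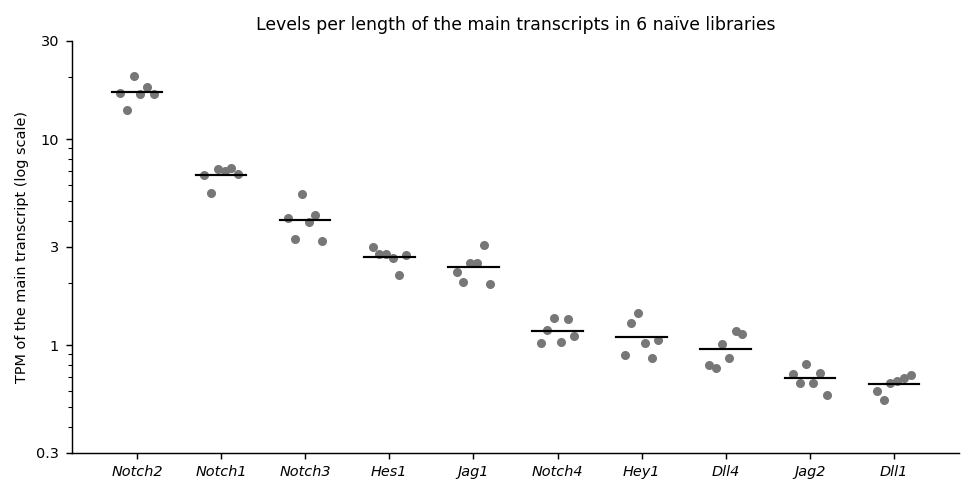
TPM of the transcript with most counts of each Notch gene (y axis, log scale) in the 6 naïve libraries (grey points), with the mean as a bar. Notch2 stood highest at a mean of 16.9 TPM and Dll1 lowest at 0.644 TPM, and the genes from Notch4 to Dll1 overlap with their neighbours.

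Among the receptors, Notch4 was called higher by counts in day 7 injured against naïve knees, Notch3 and Notch2 passed the FDR with smaller changes, and Notch1 did not pass. Values across groups are library-normalised CPM (edgeR, TMM), which compare 1 gene between libraries. Calls required both an FDR no higher than 0.05, from the edgeR quasi-likelihood test over all genes tested, and a change of 1.5-fold or more. All intervals given are approximate 95% intervals, from the SE and a normal distribution. They are narrower than the edgeR test itself would allow. In day 7 injured against naïve knees this called 16.6% of all genes, 10.4% higher and 6.11% lower, and 3 of the 10 Notch genes (Jag1, Dll4 and Notch4), all higher.

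Notch1, the receptor with the widest role in development, stood at 122.6, 109.8 and 127.1 CPM in the 3 day 7 injured libraries. Naïve libraries ran from 122.6 to 138.3 CPM, with a median of 128.8. Of the injured libraries 2 lay below every naïve one, the first narrowly (122.56 against 122.58 CPM), and the third lay inside the naïve range (0.94-fold, 95% interval 0.849 to 1.03, FDR = 0.354). Against the day 7 contralateral libraries at 130.2, 141.4 and 142.6 CPM all injured libraries were lower, without passing the test (log2 fold change −0.21 ± 0.09, SE, FDR = 0.120, and −0.22 without the library that stands apart, FDR = 0.105). Such a separation downward from contralateral libraries held for 14.3% of all genes.

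Notch2, the receptor with the highest level here, stood at 382.4, 399.4 and 414.3 CPM in day 7 injured libraries, against 329.96 to 382.8 CPM in naïve ones (median 353.6). The highest naïve library just passed the lowest injured one. The difference was 1.144-fold (interval 1.04 to 1.26) with an FDR of 0.0490, so under the fold limit. Against day 7 contralateral libraries (377.5, 371.6 and 367.8 CPM) its log2 fold change was 0.10 (FDR = 0.469), and 0.13 without the library that stands apart (FDR = 0.354).

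Notch3, known from vascular mural cells, stood at 86.6, 79.6 and 101.2 CPM in day 7 injured libraries. Naïve libraries ran from 49.7 to 76.7 CPM (median 62.2). All injured libraries lay above all naïve ones, at 1.44-fold (interval 1.19 to 1.75, FDR = 0.0106), which is short of the fold limit. Day 7 contralateral libraries stood at 83.4, 46.1 and 57.4 CPM, the first being the library that stands apart. With it the injured knees did not pass (log2 fold change 0.52 ± 0.20, FDR = 0.0821), and without it they were called higher (0.81, FDR = 0.00687).

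Notch4, known from endothelium, stood at 29.2, 22.7 and 30.3 CPM in day 7 injured libraries. In naïve libraries it ran from 13.5 to 19.9 CPM (median 16.6). No injured library reached down to the naïve range, and Notch4 was called at 1.67-fold (interval 1.32 to 2.11, FDR = 0.00497). Day 7 contralateral libraries at 23.8, 18.01 and 17.3 CPM overlapped with the injured ones (log2 fold change 0.48 ± 0.21, FDR = 0.119, and 0.66 without the first of them, FDR = 0.0546). The Notch4 call depended on how transcript length was handled. Protein-coding transcripts held 84.8% to 92.7% of its counts in naïve and 93.1% to 98.98% in day 7 injured libraries, and the average length of the transcripts seen was 1680 to 3523 bases against 3334 to 5099 bases. With an offset for that length the log2 fold change fell to 0.05 (FDR = 0.916), and over protein-coding transcripts alone it was 0.70 (FDR = 0.00653). Mean summed TPM of Notch4 was 3.38 in naïve and 2.68 in day 7 injured libraries, while mean main-transcript TPM was 1.17 and 1.67.

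**Figure D2:**
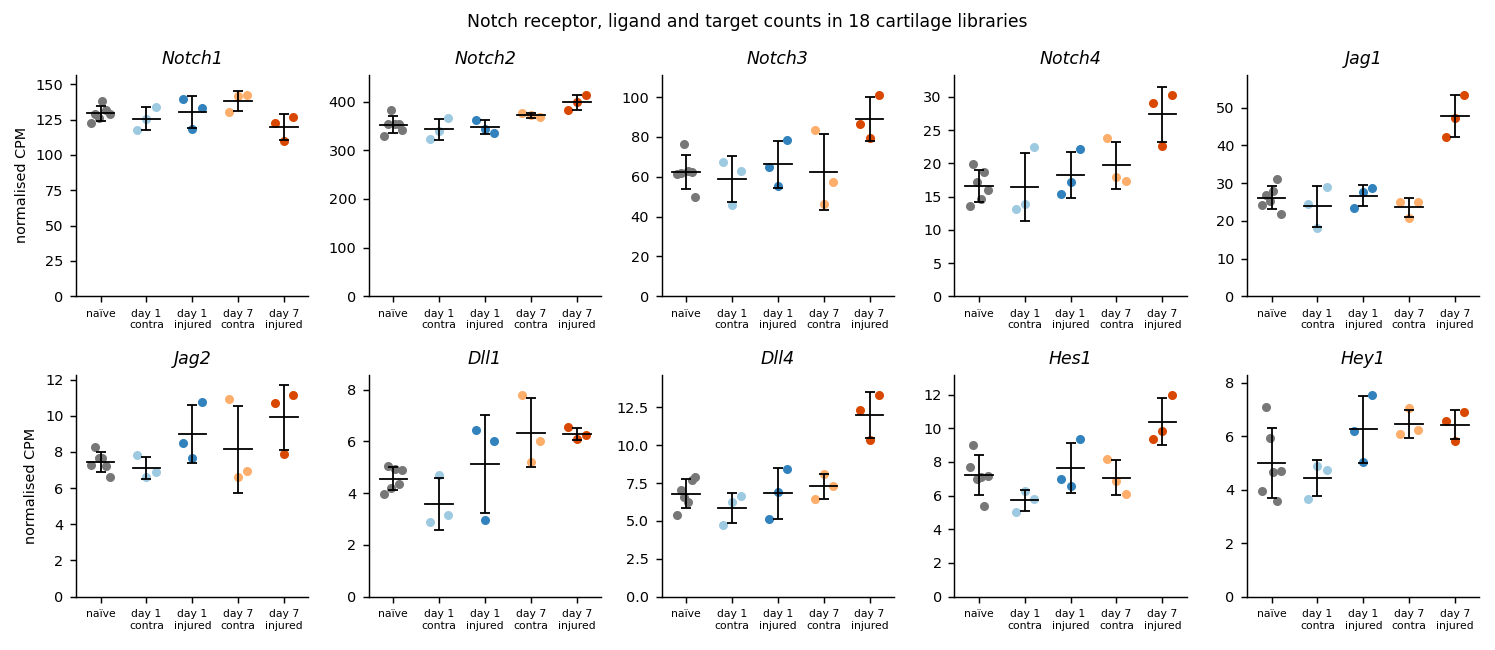
Normalised CPM (y axis, from 0) of each of the 10 Notch genes in every library of the 5 groups. Points are libraries and black bars the mean ± SD (naïve n = 6, other groups n = 3). Jag1 and Dll4 in day 7 injured libraries stand above every other library, while Notch1 in day 7 injured libraries overlaps with naïve ones and lies below day 7 contralateral ones.

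Of the ligands, Jag1 and Dll4 rose at day 7, Jag2 passed the FDR under the fold limit and Dll1 did not pass. Jag1 encodes Jagged1, the ligand most often described in skeletal progenitors. It stood at 42.3, 47.4 and 53.5 CPM in day 7 injured libraries. The 6 naïve libraries ran from 21.8 to 31.0 CPM (median 26.0), and day 7 contralateral libraries stood at 25.0, 20.7 and 25.0 CPM. Every day 7 injured library lay above all 15 others. Jag1 was called at 1.85-fold against naïve (interval 1.54 to 2.22, FDR = 0.000153) and at 2.03-fold against day 7 contralateral knees (interval 1.63 to 2.52, FDR = 0.000193), and without the library that stands apart at a log2 fold change of 1.08 (FDR = 0.000554). In this second comparison 12.6% of all genes were called, 9.33% higher and 3.23% lower, and 2 of the 10 Notch genes (Jag1 and Dll4), both higher. Every injured library exceeded every contralateral one in 18.6% of all genes. Without the library that stands apart Notch3 and Hes1 were called higher as well. The 2 comparisons share the injured libraries.

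Dll4, the ligand of endothelial tip cells, stood at 12.3, 10.3 and 13.3 CPM in day 7 injured libraries. Naïve libraries ran from 5.38 to 7.91 CPM (median 6.79) and day 7 contralateral libraries stood at 6.47, 8.11 and 7.30 CPM. The injured libraries lay above both groups without overlap, as in 17.4% of all genes against naïve and 18.6% against contralateral libraries. The change was 1.78-fold against naïve (interval 1.43 to 2.22, FDR = 0.00124) and 1.64-fold against contralateral knees (interval 1.27 to 2.12, FDR = 0.0135). Without day 7 injured replicate 3 the second call was lost (log2 fold change 0.63, FDR = 0.0781), and without the contralateral library that stands apart it was kept (0.66, FDR = 0.0387).

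Jag2, the other Jagged ligand, stood at 10.7, 7.86 and 11.1 CPM in day 7 injured libraries against 6.59 to 8.28 CPM in naïve ones (median 7.46). One injured library lay inside the naïve range, and the difference was 1.35-fold (interval 1.13 to 1.61, FDR = 0.0199). Against day 7 contralateral knees its log2 fold change was 0.30 (FDR = 0.297), and 0.58 without the library that stands apart (FDR = 0.0230, under the fold limit). Dll1, a Delta-like ligand best known from somites, stood at 6.54, 6.08 and 6.24 CPM against 3.95 to 5.04 CPM (median 4.61). Its injured libraries all lay above the naïve ones, yet it missed the FDR (1.40-fold, interval 1.05 to 1.85, FDR = 0.0924) on counts of 76 to 199 per library. Day 7 contralateral libraries of Dll1 (7.79, 5.22 and 6.02 CPM) covered the same range as the injured ones, with a log2 fold change of −0.00 ± 0.25 (FDR = 0.998), and of 0.18 without the first of them (FDR = 0.702).

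The 2 targets did not pass the fold limit. Hes1, a transcriptional repressor, stood at 9.35, 9.82 and 12.0 CPM in day 7 injured libraries. Naïve libraries ran from 5.37 to 9.01 CPM (median 7.13) and day 7 contralateral libraries stood at 8.18, 6.86 and 6.12 CPM. The injured libraries were above both groups without overlap, at 1.46-fold against naïve (interval 1.19 to 1.79, FDR = 0.0132) and 1.48-fold against contralateral knees (interval 1.15 to 1.90, FDR = 0.0400). Such a separation upward held for 17.4% of all genes against naïve and 18.6% against contralateral libraries. Against contralateral knees Hes1 was called without the library that stands apart (log2 fold change 0.70, FDR = 0.0197), and in 5 of 16 alternatives in all. With an offset for transcript length it was called in both comparisons (log2 fold changes of 0.78 and 0.79, FDR = 0.00725 and 0.0235). Hey1, a related repressor, stood at 6.58, 5.83 and 6.89 CPM against 3.58 to 7.09 CPM in naïve libraries (median 4.68), so the groups overlapped (1.31-fold, interval 1.01 to 1.71, FDR = 0.140). The approximate interval excludes an unchanged level, although the edgeR test gave an unadjusted p of 0.0605. Its day 7 contralateral libraries at 6.08, 7.04 and 6.22 CPM lay among the injured ones (log2 fold change −0.00 ± 0.22, FDR = 0.997, and −0.02 without the first of them, FDR = 0.977).

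**Figure D3:**
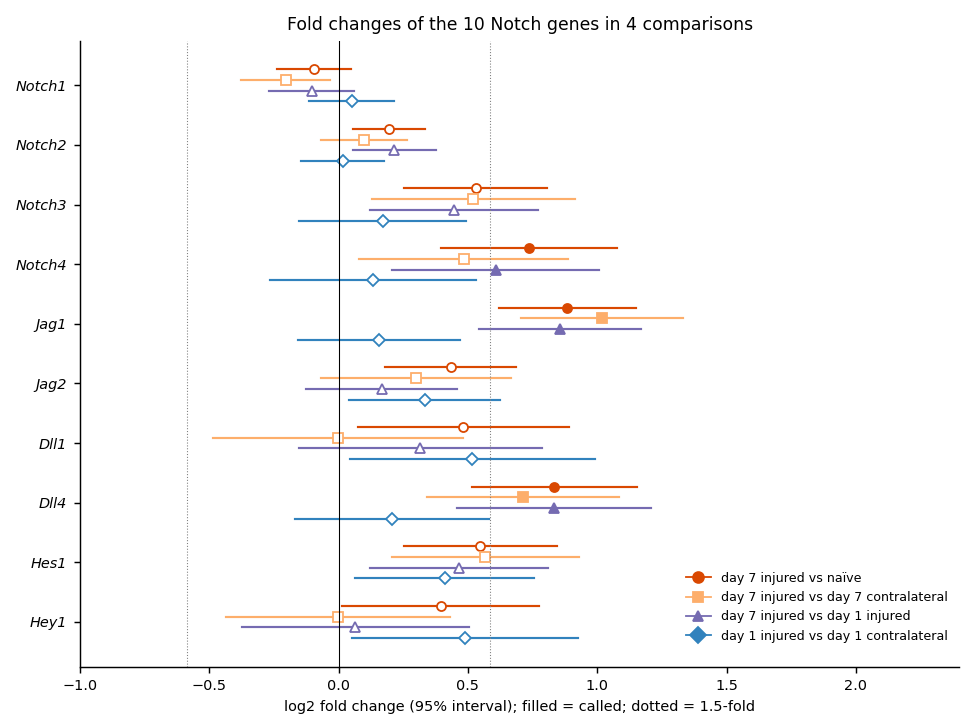
Log2 fold changes (x axis) of the 10 Notch genes in 4 comparisons, with approximate 95% intervals as lines. Filled symbols passed the FDR and the 1.5-fold limit (dotted). Jag1 and Dll4 are filled in the 3 comparisons of day 7 injured knees, Notch4 in 2 of them, and no gene is filled in day 1 injured against day 1 contralateral knees.

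Over the 10 genes the median log2 fold change of day 7 injured against naïve knees was 0.51, beside −0.04 over all genes tested. Without the fold limit 7 of the 10 passed the FDR, all higher, as did 29.8% of all genes, 18.7% higher. In 6 of the 10 (Notch3, Notch4, Jag1, Dll1, Dll4 and Hes1) every injured library exceeded every naïve one, which held for 17.4% of all genes. Against day 7 contralateral knees the median was 0.39, beside −0.05 over all genes. Without the contralateral library that stands apart it was higher, between the middle values of 0.58 (Jag2) and 0.66 (Notch4). The scaling mattered to the size of these values. With library totals alone in place of TMM the median of all genes moved to −0.35, the split of all calls went from 63.1% higher to 21.8% higher, and no Notch gene was called. Relative to that median Jag1 stood at 0.92, Dll4 at 0.87 and Notch4 at 0.78, while Notch2 changed sign in its own log2 fold change, from 0.19 to −0.12, and Notch1 passed the FDR as lower, under the fold limit (−0.41, FDR = 0.000882, or −0.05 relative to that median). The 10 most abundant genes held 26.4% to 29.8% of the counts in day 7 injured libraries and 19.6% to 25.9% in naïve ones.

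The mix of receptors is a share within each library and needs no scaling between libraries. Of the summed main-transcript TPM of the 4 receptors, Notch1 made up 21.04% to 24.6% in naïve and 18.1% to 19.6% in day 7 injured libraries. Notch3 made up 11.6% to 15.9% against 16.01% to 18.4%, and Notch4 3.57% to 4.97% against 5.52% to 6.55%. These 3 ranges did not overlap between naïve and day 7 injured libraries, while Notch2 held 57.9% to 60.0% against 56.3% to 60.4%. In the day 7 contralateral libraries Notch1 held 21.1% to 24.9%, above the injured ones, while Notch3 (10.03% to 17.1%) and Notch4 (4.09% to 5.73%) overlapped with them. In day 1 injured libraries Notch3 reached 17.1%. On summed TPM, which counts every transcript of a gene, the Notch3 shares again stood apart (7.87% to 11.7% against 12.9% to 14.4%), but those of Notch1 (31.2% to 41.8% against 24.9% to 31.4%) and of Notch4 (5.77% to 10.9% against 6.05% to 10.2%) overlapped. Among the 4 ligands Jag1 held 45.1% to 54.1% in naïve and 51.5% to 58.6% in day 7 injured libraries, which overlapped.

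At day 1 none of the 10 genes was called. Day 1 injured against naïve knees gave no call by edgeR for any of the 10 or for any other gene (0% of genes called), and no Notch gene reached an unadjusted p under 0.05, as 4.54% of all genes did. DESeq2 called 15 genes and limma-voom none, with none of the 10 among them. Day 1 injured against day 1 contralateral knees also gave 0 calls over all genes by edgeR, DESeq2 and limma-voom. In that comparison 4 of the 10 had an unadjusted p under 0.05 (Jag2, Dll1, Hes1 and Hey1), beside 6.55% of all genes. All 10 had a log2 fold change above 0, with a median of 0.19, beside −0.0015 over all genes. In day 1 contralateral against naïve knees all 10 were below 0, from −0.0036 (Notch4) to −0.35 (Dll1). Among 17 alternatives for injured against contralateral knees, the sign turned in 2 for Notch2, 2 for Notch4 and 1 for Jag1. Hes1 stood at 7.01, 6.55 and 9.37 CPM in day 1 injured and 5.05, 6.29 and 5.82 CPM in day 1 contralateral libraries, and Hey1 at 6.20, 5.02 and 7.54 against 3.65, 4.89 and 4.74 CPM. In both genes the injured libraries lay above the contralateral ones without overlap, as held for 5.09% of all genes, but inside or across the naïve range (FDR = 0.755 for each). Jag1 stood at 23.5, 27.8 and 28.8 CPM in day 1 injured and 24.6, 18.1 and 28.9 CPM in day 1 contralateral libraries, so these overlapped.

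In day 7 against day 1 injured libraries, a comparison that shares the day 7 injured libraries with those above, 15.4% of all genes were called, 9.04% higher and 6.38% lower, and 3 of the 10 Notch genes, all higher. Jag1 was 1.81-fold higher (interval 1.46 to 2.25, FDR = 0.00142), Dll4 1.78-fold (1.37 to 2.31, FDR = 0.00577) and Notch4 1.52-fold (1.15 to 2.01, FDR = 0.0420). The Notch4 call was lost in 11 of 17 alternatives, among them 4 of the 6 that leave out 1 library. The day 7 against the day 1 effect of injury, each over its own contralateral knees, differed for 3.77% of all genes, 3.53% with a higher effect at day 7 and 0.245% with a lower one, and for 1 of the 10. For Jag1 the injury effect was 0.86 ± 0.22 higher at day 7 (log2, SE, FDR = 0.0380, and 0.93 without the contralateral library that stands apart, FDR = 0.0354), a call that 9 of the 12 fits without 1 library did not make (FDR up to 0.138). For Dll4 the difference of effects was 0.50 ± 0.27 (FDR = 0.375) and for Notch4 0.34 ± 0.29 (FDR = 0.610).

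Contralateral knees were not called apart from naïve ones for any of the 10 at either day, and edgeR called no gene (0%) in either comparison. DESeq2 called 2 genes at day 1 and 31 at day 7, none of them among the 10, and limma-voom none. At an unadjusted p under 0.05 there was no Notch gene at day 1 (2.62% of all genes) and 1 at day 7 (15.1% of all genes), Dll1, whose day 7 contralateral libraries all exceeded the naïve ones, as in 1.92% of all genes (log2 fold change 0.47 ± 0.21, FDR = 0.312).

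The machinery around the receptors was described over 53 further genes, of which 50 were tested. In day 7 injured against naïve knees 9 of them rose past both limits and none fell (beside 10.4% higher and 6.11% lower over all genes), and 20 passed the FDR without the fold limit, all higher (beside 18.7% of all genes). Their median log2 fold change was 0.22. Against day 7 contralateral knees 8 of 51 rose and none fell (beside 9.33% higher and 3.23% lower over all genes). Without the contralateral library that stands apart 9 rose. With all libraries 13 passed the FDR without the fold limit, 12 of them higher (18.6% of all genes, 12.5% higher).

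Of 5 further ligands, 1 rose. Dlk1, a soluble or membrane-bound relative of the Delta ligands that lacks the usual receptor-binding domain, stood at 3.27, 4.31 and 4.26 CPM in day 7 injured libraries and at 0.395 to 1.11 CPM in naïve ones (median 0.675). The groups were far apart, at 5.62-fold (interval 4.06 to 7.78, FDR = 1.76e-06), and the injury effect was larger at day 7 than at day 1 (log2 difference 3.18 ± 0.46, FDR = 0.000523, and 3.12 without the contralateral library that stands apart, FDR = 0.00121). Egfl7, an endothelial protein that binds Notch, did not pass (log2 fold change 0.36, FDR = 0.115). Dlk2 and Dner were below the filter of the fit with naïve knees.

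Among 9 genes for the sugars on Notch EGF repeats, 3 rose past both limits and 6 passed the FDR. Gxylt2, which adds xylose to O-glucose on these repeats, stood at 91.8, 121.8 and 148.6 CPM in day 7 injured libraries against 22.6 to 29.4 CPM in naïve ones (median 25.5). No library of any other group exceeded 45.3 CPM. The change was 4.72-fold (interval 3.78 to 5.89, FDR = 1.26e-07), with a log2 difference of effects between the days of 1.29 ± 0.29 (FDR = 0.0157, and 1.201 without that library, FDR = 0.0270). Eogt, which adds O-GlcNAc, rose 2.05-fold (FDR = 0.000293), and Xxylt1, which adds a further xylose, 1.75-fold (FDR = 2.93e-05). The Fringe genes, which shift the choice of ligand, went without a call: Lfng had a log2 fold change of −0.01 (FDR = 0.963), Mfng −0.30 (FDR = 0.0571) and Rfng 0.45 (FDR = 0.00439, under the fold limit).

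None of the 10 genes for receptor cleavage passed the fold limit, while 5 passed the FDR, all higher. They were the convertase gene Furin (log2 fold change 0.50), the sheddase gene Adam17 (0.42) and the gamma-secretase genes Aph1a (0.45), Ncstn (0.39) and Aph1b (0.30). The sheddase gene Adam10 stood at −0.04 (FDR = 0.767). Of 13 genes for ligand uptake and receptor turnover 2 rose, Numbl, a relative of the Notch inhibitor Numb, by 2.46-fold (FDR = 8.62e-06) and the Deltex gene Dtx3 by 1.81-fold (FDR = 7.87e-05). Numb itself stood at 0.02 (log2, FDR = 0.885).

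In the nuclear complex 2 of 8 genes rose. Rbpj, the DNA-binding partner of every Notch receptor, stood at 139.4, 170.2 and 177.0 CPM in day 7 injured libraries, 90.9 to 108.9 CPM in naïve libraries (median 102.6) and 76.6, 99.7 and 99.7 CPM in day 7 contralateral libraries. Its injured libraries exceeded every library of the other groups. The change was 1.63-fold against naïve (interval 1.42 to 1.86, FDR = 8.70e-05) and 1.76-fold against contralateral knees (FDR = 0.000205, and 1.65-fold without the library that stands apart), and the injury effect was larger at day 7 than at day 1 by 0.76 ± 0.18 on the log2 scale (FDR = 0.0235, and 0.67 without it, FDR = 0.0333). The co-activator gene Maml2 rose 1.68-fold (FDR = 0.000102), while Maml1 (log2 fold change 0.19, FDR = 0.0567) and Maml3 (0.04, FDR = 0.772) were not called.

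Of 8 further targets 1 rose, Nrarp, a feedback inhibitor induced by Notch, at 8.17, 7.603 and 8.001 CPM in day 7 injured libraries against 4.15 to 5.89 CPM in naïve ones (median 4.93). Its groups did not overlap (1.59-fold, interval 1.33 to 1.90, FDR = 0.00130). Heyl, a target known from mural cells, stood at 13.8, 13.2 and 15.3 CPM against 8.08 to 14.9 CPM, and Hey2, a target known from arteries, at 1.86, 1.204 and 1.48 CPM against 0.677 to 1.45 CPM. Both overlapped with the naïve libraries (FDR = 0.192 and 0.146). Hes3 held at most 3 counts in any library. Hes2, named here after its values were seen, was the 1 pathway gene that fell in day 7 against day 1 injured libraries (log2 fold change −1.36 ± 0.48, FDR = 0.0491), on 1 to 20 counts per library.

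**Figure D4:**
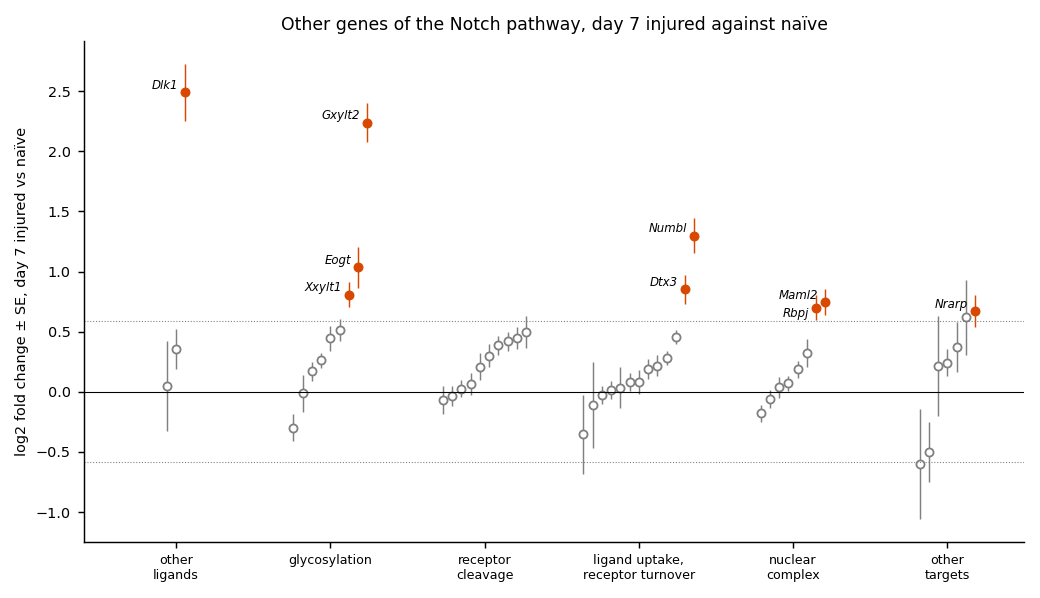
Log2 fold changes ± SE (y axis) of the 50 further pathway genes tested, day 7 injured against naïve knees, by role (x axis). Filled points with names passed the FDR and the 1.5-fold limit (dotted lines). All 9 named genes are higher, led by Dlk1 and Gxylt2, and the receptor cleavage genes all lie within the dotted lines.

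Markers of other cell types moved in the same libraries. In bulk tissue, more cells of a type and more RNA per cell cannot be told apart. The counts below stand beside 10.4% of all genes called higher and 6.11% lower against naïve knees, with 18.7% passing the FDR higher. Single genes lay wholly above the naïve range in 17.4% of all genes and wholly below it in 10.8%. Of 10 endothelial markers 5 rose at day 7 against naïve knees (Pecam1, Cdh5, Tie1, Emcn and Esam), 8 passed the FDR higher and 1, Vwf, lower. Their summed level was 819, 819 and 919 CPM in day 7 injured libraries, 623 to 741 CPM in naïve ones (median 702) and 692 to 698 CPM in day 7 contralateral ones. Vwf was the most abundant of them. Without it, a choice made after its values were seen, the sum was 611 to 729 CPM in day 7 injured and 406 to 476 CPM in naïve libraries. Of 8 mural markers 4 rose (Rgs5, Cspg4, Mcam and Higd1b), with sums of 621 to 763 CPM against 339 to 465 CPM and Rgs5 as the most abundant. Of 8 synovial fibroblast markers 6 rose, with sums of 1488 to 2023 CPM against 392 to 543 CPM and Lum as the most abundant. Of 13 chondrocyte markers 4 rose and 1 fell, with sums of 7500 to 8570 CPM against 4346 to 8108 CPM and Col2a1 as the most abundant. Of 9 erythroid markers 5 fell (16761 to 27599 against 30927 to 41443 CPM, Hbb-bs the most abundant) and of 8 adipocyte markers 6 fell (149.8 to 215 against 256 to 792 CPM, Cfd the most abundant). Sums of 3 further lists also lay wholly above the naïve range, though few of their genes were called and the day 7 contralateral sums overlapped with the injured ones. They were hypertrophic chondrocyte markers (2 of 6 rose, 1858 to 2052 against 1049 to 1837 CPM in naïve and 1466 to 2088 CPM in contralateral libraries, Spp1 the most abundant), osteoclast markers (1 of 8 rose, 1779 to 1915 against 1060 to 1689 and 1638 to 2310 CPM, Mmp9) and macrophage markers (3 of 10 higher and 1 lower by the FDR, none past the fold limit, 863 to 945 against 585 to 812 and 812 to 945 CPM, Csf1r). The sum of 10 proliferation genes lay wholly below the naïve range (1903 to 2337 against 2524 to 2977 CPM, with 2110 to 2911 CPM in contralateral libraries, Mki67 the most abundant). No marker of these lists was at or under 3 counts in every library.

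Per 100 CPM of the 10 endothelial markers Jag1 stood at 3.42 to 4.70 CPM in naïve and 5.17 to 5.82 CPM in day 7 injured libraries, which did not overlap. Dll4 stood at 0.801 to 1.27 against 1.26 to 1.503 CPM and Notch4 at 1.99 to 2.83 against 2.77 to 3.56 CPM, both overlapping. Over the 9 markers without Vwf Jag1, Dll4 and Notch4 all overlapped, Jag1 at 5.37 to 7.38 against 6.92 to 7.504 CPM. There Notch1 (27.1 to 31.7 against 17.4 to 20.1 CPM) and Notch2 (74.3 to 85.3 against 56.9 to 63.2 CPM) lay wholly lower in day 7 injured libraries. The mean endothelial sum was itself 1.23 times the naïve one in day 7 injured libraries (1.497 times without Vwf), which lowers every such ratio there by construction. The part of these cell types in the results was not tested.

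**Figure D5:**
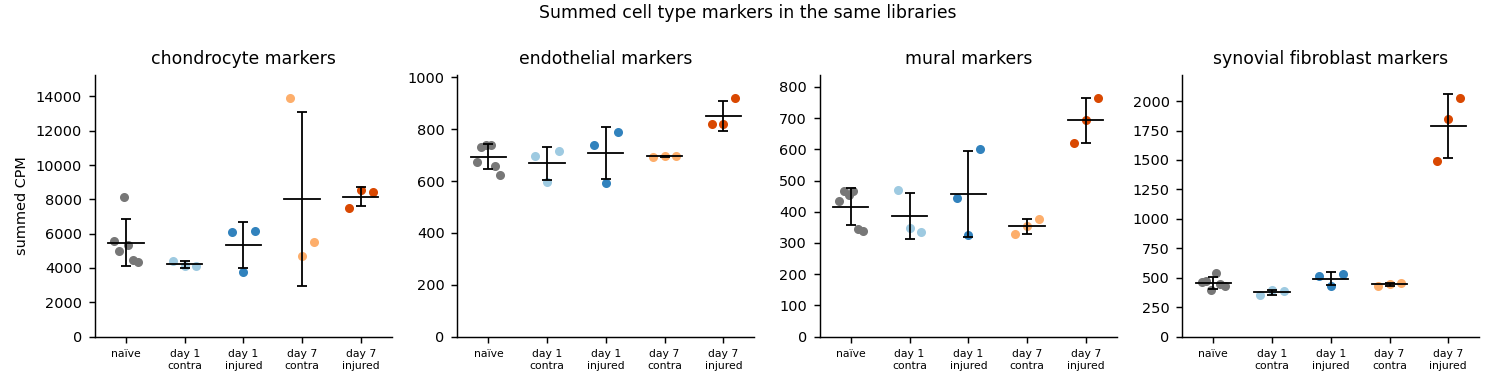
Summed CPM (y axis, from 0) of 4 lists of cell type markers in every library of the 5 groups, as points with mean ± SD (naïve n = 6, other groups n = 3). Endothelial, mural and synovial fibroblast sums are highest in the day 7 injured libraries, and 1 day 7 contralateral library stands apart in the chondrocyte sum at 13890 CPM.

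Genes that followed each Notch gene most closely were found over the 18 libraries after each group's mean was taken away, among 15988 genes with at least 1 CPM on average. For Jag1 they were Creb3l2 (Pearson r = 0.90), Acvr1 (0.90) and Tmbim1 (0.88). For Notch3 they were Pkd1 (0.94), Fgfr1 (0.93) and Klc2 (0.92), and for Notch4 Crtap (0.90), Aplnr (0.89) and N4bp3 (0.88). For Dll4 they were Gm15725 (0.85), Cd276 (0.78) and Rpp21 (0.76). For Jag2 the first was St6galnac6 (0.95), for Hey1 Zfp358 (0.92), for Hes1 Acot13 (0.90), for Notch1 Zfp516 (0.90), for Dll1 Mdh1 (0.89) and for Notch2 Uba1 (0.83). These values are the highest of many and share library depth and composition, and they describe likeness only.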

How the data were processed

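Total RNA without ribosomal RNA (TruSeq Stranded) was sequenced in 18 libraries. The authors trimmed the reads with Trimmomatic 0.39 and pseudo-aligned them with Kallisto 0.46.1 to the mouse GRCm38 transcriptome, and deposited estimated counts and TPM per transcript. The TPM deposited by the authors are scaled by length and library total. Here 135107 of 137436 transcripts (98.3%) were matched without version to GENCODE M21 (GRCm38), and estimated counts were summed to 49184 genes and rounded. Genes were tested with edgeR 4.0.16 (R 4.3.3; TMM, filterByExpr, quasi-likelihood test, a mean per group, Benjamini-Hochberg) on 15 libraries, or on 18 (21262 genes) for comparisons with the day 7 contralateral group, and the fit was tested on simulated data. The correlation the study modelled between paired knees could not be set up, as shared mice are not labelled. DESeq2 1.42.0, limma-voom (3.58.1) and other scalings, filters and thresholds were alternatives. Named were all 10 members, per pathway list up to 4 called genes with the largest change, Rbpj, Heyl, Hey2, Nrarp, genes at or under 3 counts throughout and the nearest genes by correlation after removing group means. Members, lists and tests were chosen with earlier results of these data known. The study removed 1 ACL library for low mapping and did not name it.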

Additional observations from a re-analysis of the deposited data

Results flagged for a closer look

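For Jag1 the injury effect at day 7 exceeded that at day 1 by 0.86 on the log2 scale (edgeR interaction contrast, FDR = 0.0380). This call was lost in 14 of 22 alternatives (FDR up to 0.218). For 5 further pathway genes the same contrast passed, beside 3.77% of all genes, 3.53% higher. With all libraries in the fit their differences were 3.18 for Dlk1, 1.29 for Gxylt2, 1.28 for Numbl, 0.76 for Xxylt1 and 0.76 for Rbpj. Among 25 quantities tested for a naïve library far from the other 5, chance flags about 1 in 20 and 2 stood out. The summed chondrocyte markers reached 8108 CPM in the highest naïve library, and the summed macrophage markers were 585 CPM in the lowest. None of the 10 Notch genes had a naïve library this far from the rest.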

How the results depend on the processing

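Over 80 values of the 10 genes (10 genes in 8 comparisons) and 1510 alternatives, 1460 stayed on the same side of the call, 34 lost it, 16 gained it and none of the called values changed sign. Most of the 80 values were not called, so most of the 1460 are values that stayed uncalled. All 34 losses fell on the few called values, of Jag1, Dll4 and Notch4. Among values without a call in either fit, the sign differed in 84 alternatives. The log2 fold changes of Jag1 in day 7 injured against naïve knees ran from 0.57 to 0.97, and those of Dll4 from 0.52 to 0.93. With library totals alone the Notch genes called went to 0 in day 7 injured against naïve and against day 1 injured knees, to 1 against day 7 contralateral knees and to 0 for the difference between the days. Without the fold limit 7 Notch genes and 20 further pathway genes were called against naïve knees and 13 further pathway genes against day 7 contralateral knees. Of all genes 29.8% and 18.6% then passed in these comparisons. At an FDR of 0.01 the calls fell to 1 against day 7 contralateral knees and to 0 for the difference between the days, which was also 0 with length offsets, over protein-coding transcripts and with 4 groups alone. Leaving out 1 library gave 3 to 4 Notch genes against naïve knees, 2 to 4 against day 1 injured knees, 1 to 4 against day 7 contralateral knees and 0 to 1 for the difference between the days, with 9 to 10 and 8 to 10 further pathway genes against naïve and day 7 contralateral knees. With all libraries the calls over all genes were 16.6%, 15.4%, 12.6% and 3.77%, in the order of the Notch counts. Shares of all genes in the other fits are not given here, so whether these counts moved with them cannot be told. The 0 calls at day 1 and of contralateral against naïve knees stayed 0 under all alternatives run. The cause of these shifts was not tested. No paired analysis was possible because the labels give neither replicate numbers nor the mice behind each pool. Groups of 3 pools and fewer than 300 counts per library for Jag2, Dll1, Dll4, Hes1 and Hey1 limit the precision.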
